A study of Mus musculus with 6 samples.

Results

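The fatty acid elongases and the stearoyl-CoA desaturases were followed in RNA-seq libraries of mouse dorsal skin. Their members were the rows of the deposited expression table named Elovl1 to Elovl7 and Scd1 to Scd3, and all 10 were matched by symbol, 7 elongases and 3 desaturases of 21959 genes listed. Male wildtype C57BL/6 mice were shaved on the back in telogen, the resting phase of the hair cycle, at 7 weeks of age. They then received a daily topical dose of vehicle (30% dipropylene glycol and 70% distilled water) or of 3% rebamipide, a gastroprotective drug, for 7 days, and full-thickness skin was taken on day 7. Each group held 3 libraries, made from separate mice, and no group carried an engineered allele.

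Elongases are membrane enzymes of the endoplasmic reticulum that carry out the first and rate-limiting step by which a fatty acyl-CoA is lengthened, the condensation with malonyl-CoA. Stearoyl-CoA desaturases place a double bond in palmitoyl-CoA and stearoyl-CoA and so make palmitoleate and oleate, the main monounsaturated fatty acids of stored triglyceride and of sebum. In skin, the elongases with a preference for very long and ultra-long chains feed the ceramides of the epidermal barrier and the lipids of the sebaceous gland, whereas adipocytes use the shorter-chain enzymes for storage lipid.

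Both families are recognised by histidine motifs that hold iron in the desaturases and lie in the active site of the elongases. The stretch around the HXXHH motif is shown for every elongase, because the codons between the histidines sort the 7 genes into the groups used to order the results. The sequences are coding DNA of GENCODE M21 transcripts on GRCm38, written 5′ to 3′ on the strand of the gene, and capitals mark the motif from its first to its last histidine codon.
Elovl3: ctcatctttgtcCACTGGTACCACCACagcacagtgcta
Elovl6: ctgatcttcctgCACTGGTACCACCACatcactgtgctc
Elovl1: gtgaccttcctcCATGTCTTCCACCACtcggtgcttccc
Elovl7: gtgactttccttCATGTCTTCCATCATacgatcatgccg
Elovl4: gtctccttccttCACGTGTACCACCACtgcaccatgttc
Elovl5: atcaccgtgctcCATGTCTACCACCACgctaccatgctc
Elovl2: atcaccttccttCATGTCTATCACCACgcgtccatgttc

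Elovl3 and Elovl6 held codons for tryptophan and tyrosine between the histidines, Elovl1 and Elovl7 held valine and phenylalanine, and Elovl4, Elovl5 and Elovl2 held valine and tyrosine. On GRCm38 the stretches lie at chr19:46134410-46134448 in exon 4 of 4 (Elovl3, + strand), chr3:129633095-129633133 in exon 5 of 5 (Elovl6, + strand) and chr4:118431442-118431480 in exon 6 of 8 (Elovl1, + strand). Those of the other elongases lie at chr13:108274319-108274357 in exon 6 of 8 (Elovl7, + strand), chr9:83785078-83785116 in exon 4 of 6 (Elovl4, - strand), chr9:77976838-77976876 in exon 5 of 8 (Elovl5, + strand) and chr13:41189989-41190027 in exon 5 of 8 (Elovl2, - strand).

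For the desaturases the first HXXHH motif is shown because Scd1 and Scd2 are identical over this stretch of 39 bases and Scd3 differs from them at 1 base, which bears on how far their reads can be told apart.
Scd1: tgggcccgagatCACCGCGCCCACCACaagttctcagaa
Scd2: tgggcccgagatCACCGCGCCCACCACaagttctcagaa
Scd3: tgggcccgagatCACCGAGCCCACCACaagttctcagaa

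These stretches lie in exon 4 of 6 of each gene, at chr19:44401845-44401883 on the - strand for Scd1, chr19:44299624-44299662 on the + strand for Scd2 and chr19:44235786-44235824 on the + strand for Scd3 (GRCm38). The coding sequences were 91.5% identical between Scd1 and Scd3 and 90.4% between Scd1 and Scd2, and the longest stretches without a difference were 185 and 147 bases. Of all windows of 50 bases in the transcripts, 3.49% of those in Scd1 also occurred in Scd3 and 3.03% in Scd2. In turn, 4.855% of the Scd3 windows and 2.68% of the Scd2 windows occurred in Scd1. No such window was shared between any elongases. Reads from windows shared among the desaturases could therefore not be assigned to 1 gene by sequence, and how the counting treated them was not tested. In the rebamipide libraries Scd1 held 1185758 to 2796357 counts, against 3522 to 11645 of Scd2 and 35 to 1260 of Scd3. Even a small part of the Scd1 reads could thus weigh on the levels and shares of Scd2 and Scd3 and on their ratios to Scd1.

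In the deposited table, whose positions are on GRCm39, Scd3 (19:44191708-44232455), Scd2 (19:44282113-44295303) and Scd1 (19:44382894-44396318) lay on 1 chromosome, as did Elovl3 (19:46120336-46124133). Elovl4 (9:83660745-83688330) and Elovl5 (9:77824646-77891801) lay on chromosome 9, Elovl7 (13:108350938-108422217) and Elovl2 (13:41335857-41373881) on chromosome 13, Elovl1 (4:118285290-118290150) on chromosome 4 and Elovl6 (3:129326004-129432144) on chromosome 3. Elovl1 overlapped Cdc20 by 53 bases and Elovl3 overlapped Pitx3 by 10 bases, each on the opposite strand. Whether the counting used strand was not given in the sources used here, so reads in those overlaps could not be assigned. Pitx3 held 4 to 78 reads, against 873 to 11150 of Elovl3. Cdc20 held 2677, 1345 and 690 reads with vehicle and 423, 86 and 26 with rebamipide. It was thus lower in every rebamipide library, as Elovl1 was. In vehicle library 1 Elovl1 held 4464 reads.

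Library totals ran from 38676018 to 39915276 counts with vehicle and from 32709801 to 34706852 with rebamipide, and the 13 mitochondrial genes took 2.59% to 5.36% and 13.3% to 22.0% of them. Rebamipide library 3 stood apart. Krt14, a keratin of basal keratinocytes, had 0 counts there against 6102 and 10954 in the other rebamipide libraries and 26099 to 64371 with vehicle, and Krt5 had 4. Of the marker lists, 2 of 6 basal keratinocyte, 3 of 7 suprabasal and 2 of 6 sebaceous genes were at 0 counts in it, and Krt1 had 2. Itga6, an integrin subunit on the basal list that other cell types also express, had 3388 counts there (129 CPM, against 108 and 151 in the other rebamipide libraries and 133 to 192 with vehicle). The keratins that define epidermis were thus at or near 0 in a library labelled skin. The study calls the sequenced skin full-thickness, and the labels give no layers per sample. A difference in the tissue sampled and an effect of the treatment cannot be told apart for any group difference below. Ucp1, the uncoupling protein of brown adipocytes, had 0 counts in all vehicle libraries and 81048, 220449 and 150572 with rebamipide. In bulk tissue, fewer cells of a type and less RNA per cell cannot be told apart, and member fold changes, shares and list medians that lean on rebamipide library 3 are given with and without it.

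Scd1 was the 1 member called by edgeR, the main test. Its level was higher with rebamipide in all 3 libraries, by 11.4-fold between group means, while 8 of the 9 members that could be tested had a negative log2 fold change, as did 56.9% of all genes tested. Scd2, Scd3, Elovl1, Elovl3, Elovl4 and Elovl7 had every rebamipide library below every vehicle library. Of these 6, edgeR called 0 and DESeq2 called 4 lower (Elovl1, Elovl3, Elovl7 and Scd2). In normalised CPM the groups overlapped for Elovl5 and Elovl6, though in FPKM those of Elovl5 did not. Elovl2 was close to the detection limit and did not enter the edgeR test.

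By edgeR's quasi-likelihood test with Benjamini-Hochberg adjustment over 14875 genes, 1 of 9 members was called higher at an adjusted p of 0.05, where 14.1% of all genes were called higher. The same test called 0 of 9 lower, where 6.51% of all genes were called lower. At an unadjusted p under 0.05, 4 members were lower (Elovl1, Elovl3, Elovl7 and Scd2) and 1 higher, against 18.8% and 20.9% of all genes. Adding a log2 fold change beyond 1 in size left 1 higher and 4 lower, against 14.3% and 14.5% of all genes. DESeq2 called 1 higher and 4 lower of 10 members, against 14.9% and 14.2% of 17817 genes. No overlap between groups was seen for 1 member in the higher direction (24.5% of all genes) and for 6 in the lower direction (24% of all genes). The median log2 fold change of the tested members was -1.49, and that of all genes tested was -0.17.

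**Figure D1:**
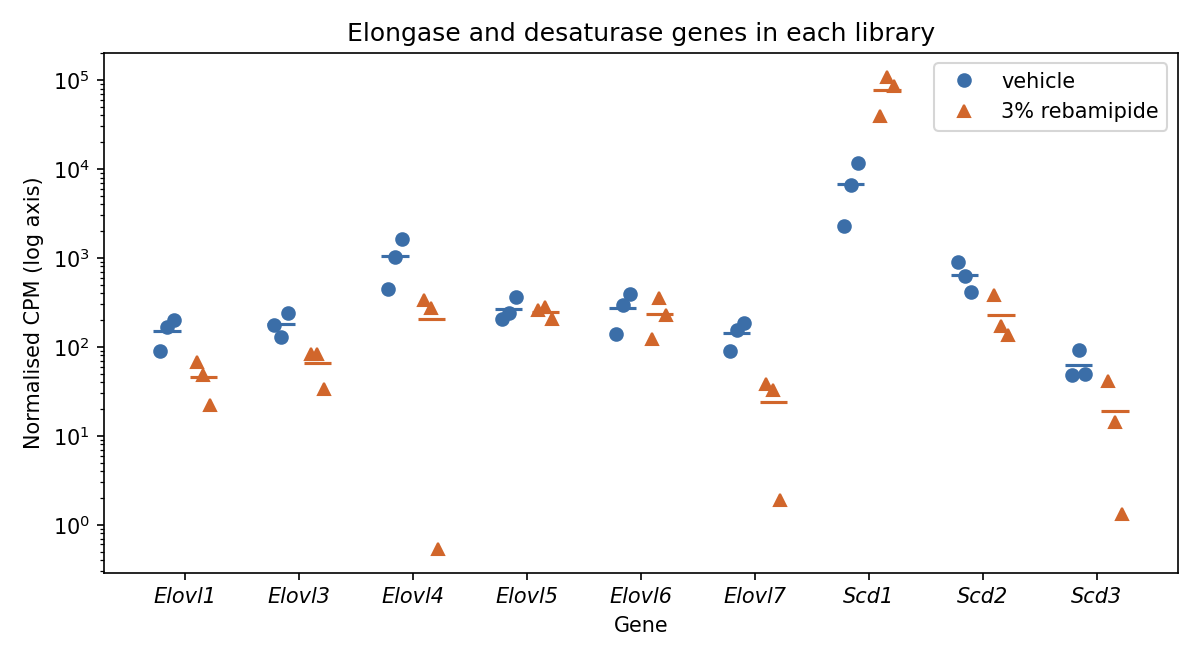
Normalised CPM (log axis) of the 9 tested members in each library, with vehicle as circles, rebamipide as triangles and group means as short lines. Scd1 stands above all other members in every library, at 2284 to 11660 with vehicle and 39046 to 108979 with rebamipide, and Elovl4 in rebamipide library 3 lies at 0.53.

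Scd1 is the main desaturase of adipocytes and sebocytes. Its normalised CPM (counts scaled to library size with TMM factors) was 2284, 6598 and 11660 in vehicle libraries 1 to 3, and 39046, 108979 and 86058 in rebamipide libraries 1 to 3. The lowest rebamipide library was above the highest vehicle library, although the vehicle libraries themselves spread widely. Scd1 took 0.292%, 0.814% and 1.41% of all counts with vehicle and 3.63%, 8.13% and 6.50% with rebamipide. It ranked 11th, 3rd and 2nd among all genes by counts in the vehicle libraries and 2nd in each rebamipide library. The group means were 6848 ± 4693 and 78028 ± 35651 CPM (SD, n = 3 each). The fitted log2 fold change was 3.51 ± 0.87 (SE), with a 95% interval from 1.40 to 5.62 and an adjusted p of 0.0386 by edgeR.

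The size of the Scd1 difference held while its call did not always. Over 21 alternatives its log2 fold change lay between 2.86 and 4.15, and it was called in 15 of them. The adjusted p by edgeR was 0.103, 0.174 and 0.052 without vehicle library 1, 2 and 3, and 0.0312, 0.150 and 0.0621 without rebamipide library 1, 2 and 3. Without vehicle library 2, edgeR called 0 genes of the whole table in either direction (2330 higher and 1786 lower at an unadjusted p under 0.05), and without rebamipide library 2 it called 1. DESeq2 kept the call whichever library was left out, with adjusted p from 5.74e-08 to 0.00213. Without rebamipide library 3 the edgeR log2 fold change was 3.44.

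Scd2, the desaturase best known from brain and from the skin of newborn mice, was lower in every rebamipide library. Its normalised CPM was 902, 627 and 412 with vehicle and 383, 172 and 134 with rebamipide, so the groups were separate but only by a narrow margin. The log2 fold change was -1.49 ± 0.50 (95% interval -2.71 to -0.27), and the adjusted p was 0.0800 by edgeR and 0.0211 by DESeq2. Without rebamipide library 3 it was -1.21, with adjusted p of 0.177 by edgeR, and without rebamipide library 1 it was -2.07, with adjusted p of 0.0249 by edgeR.

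Scd3, known in mice from sebaceous glands and Harderian gland, had 48.1, 92.4 and 49.0 CPM with vehicle and 41.5, 14.3 and 1.34 with rebamipide. The rebamipide libraries were all lower, the first by little and the last by far. The log2 fold change was -1.73 ± 1.04 (95% interval -4.25 to 0.79), with an adjusted p of 0.254 by edgeR, and it was -1.17 without rebamipide library 3. Without rebamipide library 1 it was -3.01, with an adjusted p of 0.0918 by edgeR and 0.00387 by DESeq2, and with all libraries limma-voom gave -2.63.

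The make-up of the desaturase family was compared per length, as the share of each gene in the summed FPKM of its family within a library, which does not depend on scaling between libraries. Scd1 made up 72.3%, 90.5% and 96.4% of desaturase FPKM with vehicle and 99.0%, 99.8% and 99.9% with rebamipide. Scd2 made up 25.6%, 7.71% and 3.05% with vehicle and 0.870%, 0.141% and 0.140% with rebamipide. The ratio of Scd1 to Scd2 FPKM was thus 2.83, 11.7 and 31.6 with vehicle and 114, 707 and 715 with rebamipide. The order Scd1, Scd2, Scd3 was the same in both groups, with no overlap between neighbours. None of the 3 shares overlapped between groups, and each gave a two-sided exact permutation p of 0.1, the smallest that 3 against 3 libraries allow (0.143 after Benjamini-Hochberg adjustment over 10 shares).

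Among the elongases, Elovl3 and Elovl6 form the pair with tryptophan and tyrosine between the histidines. Elovl3, which makes saturated and monounsaturated very long chains in sebaceous glands and in cold-exposed brown fat, had 176, 129 and 238 CPM with vehicle and 82.3, 83.1 and 33.3 with rebamipide. All rebamipide libraries were below the vehicle libraries. The log2 fold change was -1.45 ± 0.42 (95% interval -2.48 to -0.42), with an adjusted p of 0.0575 by edgeR and 0.0121 by DESeq2. Without rebamipide library 3 it was -1.12.

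Elovl6 lengthens palmitate to stearate, the step just before the desaturases. Its CPM was 140, 293 and 395 with vehicle and 124, 357 and 228 with rebamipide, and the groups overlapped. The log2 fold change was -0.23 with a 95% interval from -1.47 to 1.02, which leaves room for a change of more than 2-fold in either direction (adjusted p = 0.766 by edgeR).

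Elovl1 and Elovl7 carry valine and phenylalanine between the histidines. Elovl1, which makes the saturated very long chains of ceramides and sphingolipids, had 89.4, 168 and 200 CPM with vehicle and 68.2, 48.6 and 22.3 with rebamipide. No rebamipide library reached the lowest vehicle library. The log2 fold change was -1.72 ± 0.49 (95% interval -2.90 to -0.53), with an adjusted p of 0.0542 by edgeR and 0.00730 by DESeq2, and it was -1.38 without rebamipide library 3.

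Elovl7, an elongase of saturated long chains, had 90.6, 154 and 186 CPM with vehicle and 37.9, 32.3 and 1.91 with rebamipide. The groups were clearly separate, and the last library was well below the other rebamipide libraries. Its log2 fold change was -2.58 ± 0.98 (95% interval -4.95 to -0.21), with an adjusted p of 0.105 by edgeR and 0.0165 by DESeq2. Without rebamipide library 3 the fold change was smaller, -2.02 ± 0.39, and the adjusted p by edgeR was 0.0348. With all libraries limma-voom gave -3.33 (adjusted p = 0.0618).

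Of the group with valine and tyrosine, Elovl4 was the most abundant elongase of vehicle skin. It makes the ultra-long chains of acylceramides, the lipids that seal the epidermal barrier. Its CPM was 452, 1033 and 1647 with vehicle and 339, 270.5 and 0.53 with rebamipide. The last value rests on 14 counts. The rebamipide libraries were all lower, and library 3 stood far below the other two. The log2 fold change was -2.36 ± 1.64 (95% interval -6.34 to 1.62), with an adjusted p of 0.316 by edgeR. Without rebamipide library 3 it was -1.77 ± 0.60, with an adjusted p of 0.115 by edgeR and 0.0145 by DESeq2. With all libraries it was -4.59 by limma-voom and -4.23 by limma on log2(FPKM + 1), neither of them called.

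Elovl5 lengthens polyunsaturated chains. It had 204, 240 and 361 CPM with vehicle and 261, 277 and 206 with rebamipide, and the groups overlapped after TMM scaling. In FPKM, which carry no TMM factors, it had 74.1, 84.0 and 124 with vehicle and 68.7, 58.7 and 44.1 with rebamipide, without overlap. With total counts alone the log2 fold change was -0.72 (95% interval -1.43 to -0.009, adjusted p = 0.0942 by edgeR). In the main test the 95% interval of Elovl5 was the narrowest of the members, from -0.80 to 0.57 around a log2 fold change of -0.12 (adjusted p = 0.782 by edgeR). The sign turned when vehicle library 3 or rebamipide library 3 was left out.

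Elovl2, which lengthens longer polyunsaturated chains and is known from liver and testis, had 2, 6 and 0 counts with vehicle and 2, 10 and 10 with rebamipide. It did not pass the filter on low counts. The library without a count allows a level of up to 0.0641 CPM, which is 3 counts at its depth.

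**Figure D2:**
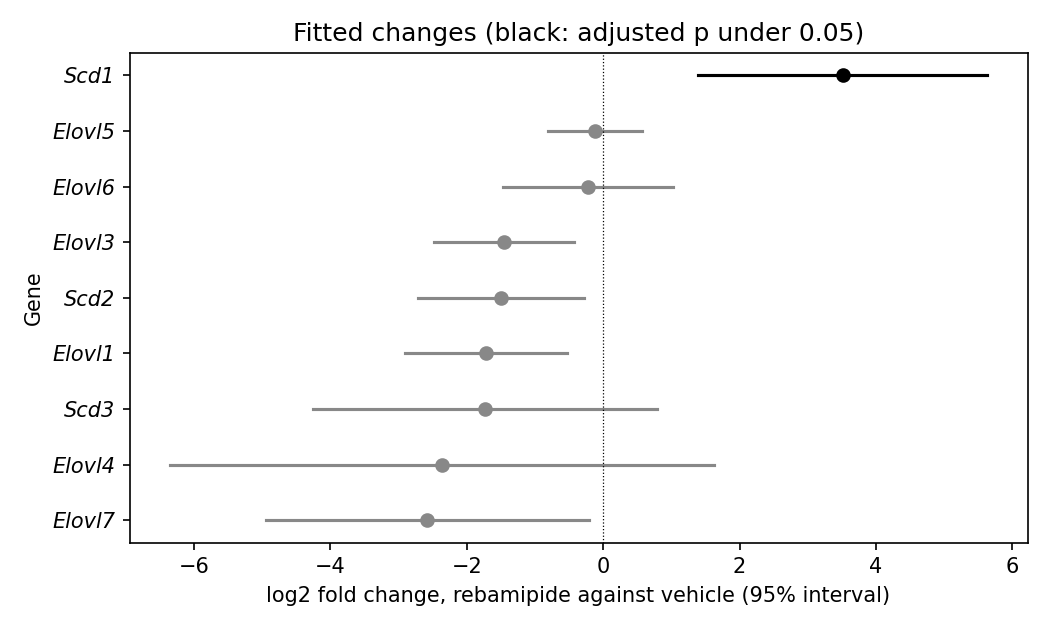
Fitted log2 fold change of rebamipide against vehicle for each tested member (points) with 95% intervals (lines), in black where the adjusted p by edgeR was under 0.05. Scd1, at 3.51, is the single black point, and the interval of Elovl4, from -6.34 to 1.62, is the widest.

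The elongases were ordered by FPKM, which corrects for length, within each group. With vehicle the order ran Elovl4 (423 ± 234 FPKM, SD, n = 3), Elovl3 (113 ± 32.8), Elovl5 (94.0 ± 26.5), Elovl1 (68.9 ± 24.2), Elovl6 (52.8 ± 23.5), Elovl7 (44.1 ± 13.9) and Elovl2 (0.017 ± 0.019). Elovl4 did not overlap the next gene, and neither did Elovl7 and Elovl2, while all other neighbours overlapped. With rebamipide it ran Elovl5 (57.2 ± 12.4), Elovl4 (57.0 ± 52.6), Elovl6 (28.7 ± 11.9), Elovl3 (27.6 ± 13.4), Elovl1 (14.2 ± 8.56), Elovl7 (5.05 ± 4.29) and Elovl2 (0.054 ± 0.033). There, all neighbours overlapped apart from Elovl7 and Elovl2. The lead of Elovl5 rests on rebamipide library 3, since Elovl4 had 104 and 66.7 FPKM in rebamipide libraries 1 and 2, against 68.7 and 58.7 of Elovl5.

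As a share of the elongase FPKM, Elovl4 held 40.01%, 55.0% and 57.4% with vehicle and 39.8%, 30.7% and 0.148% with rebamipide. The margin between the groups was 40.01% against 39.8%, and the mean difference of -27.3 percentage points was -15.57 without rebamipide library 3. Elovl5 held 15.5%, 11.0% and 10.8% with vehicle and 26.3%, 27.0% and 48.8% with rebamipide, a mean difference of 21.6 percentage points, or 14.2 without rebamipide library 3. Elovl7 held 6.04%, 6.17% and 4.89% with vehicle and 3.36%, 2.76% and 0.398% with rebamipide, a mean difference of -3.53 percentage points, or -2.64 without rebamipide library 3. The shares of these 3 genes did not overlap between groups, and each gave the smallest possible exact permutation p of 0.1 (adjusted 0.143). Elovl2 also did not overlap (p = 0.1 by the exact permutation test), on at most 10 counts a library.

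The other elongase shares overlapped between groups. Elovl6 held 5.81% to 7.36% with vehicle and 6.85%, 19.0% and 29.6% with rebamipide (exact permutation p = 0.2), a mean difference of 11.9 percentage points, or 6.39 without rebamipide library 3. Elovl1 held 7.72% to 9.95% and 6.11% to 8.89% (p = 0.3, same exact permutation test). Elovl3, at 10.5% to 23.8% with vehicle, lay within 14.1% to 14.8% in the rebamipide libraries (p = 1, same exact permutation test). The summed elongase FPKM was 477, 765 and 1147 with vehicle and 261, 218 and 90.3 with rebamipide, whereas the summed desaturase FPKM was 825, 1838 and 2990 and then 7486, 16653 and 13301.

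**Figure D3:**
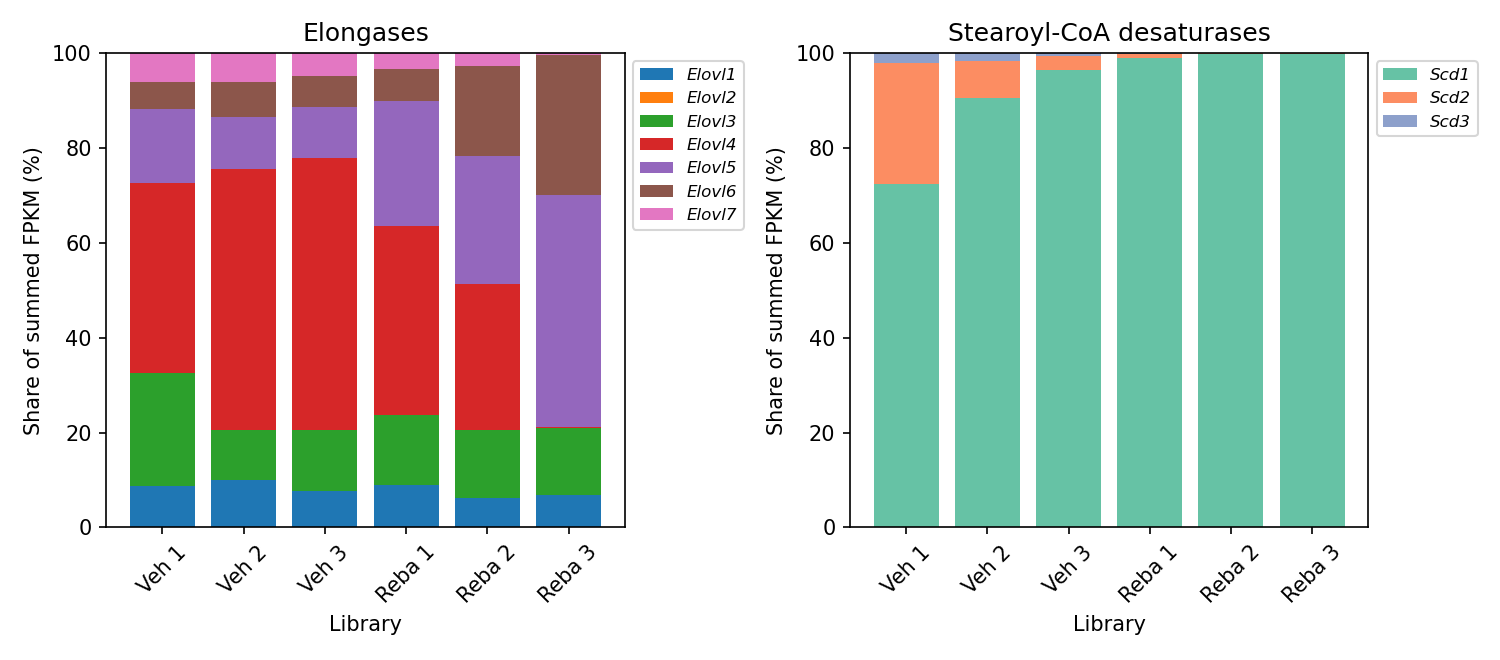
Share of each gene in the summed FPKM of its family (%, stacked bars) in each of the 6 libraries, elongases on the left and desaturases on the right. Elovl4 takes 40.01% to 57.4% of the elongase bar with vehicle and 0.148% in rebamipide library 3, and Scd1 takes 99.0% to 99.9% of the desaturase bar in the rebamipide libraries.

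Marker lists of the cell types of skin were set beside the members by the average log2 CPM over the genes of a list. Adipocyte markers (12 genes, 8 called higher by edgeR) ran from 7.06 to 8.47 with vehicle and from 9.51 to 10.1 with rebamipide, and brown adipocyte markers (8 genes, 7 called higher) from 1.12 to 2.53 and from 7.19 to 8.53. Endothelial markers (6 genes, 4 called higher) and blood markers (5 genes, 3 called higher) also did not overlap between groups. Sebaceous markers (6 genes, 1 called lower) ran from 4.84 to 6.02 with vehicle and were 4.08, 3.55 and -1.004 with rebamipide. Suprabasal keratinocyte markers (7 genes) ran from 6.92 to 8.80 and were then 6.70, 6.20 and -2.06, and basal keratinocyte markers (6 genes) ran from 8.32 to 8.85 and were then 7.14, 6.39 and -0.76. Growing hair, fast muscle, fibroblast and Schwann cell markers overlapped between groups. The growing hair list spread most, from 4.15 to 10.9 within the vehicle group. It was at 5.75, -3.66 and -3.95 in rebamipide libraries 1 to 3, with 6 of 8 genes at 0 counts in library 2 and 7 in library 3. In rebamipide library 3 the fast muscle list, at 8.66 to 11.0 with vehicle, was at 4.33.

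The distance of a member from a marker list in the same library was then compared between groups, for pairs chosen after the values were seen. Elovl4 lay 1.90, 1.39 and 1.88 log2 units above the suprabasal keratinocyte list with vehicle and 1.71, 1.87 and 1.29 above it with rebamipide, so the distances overlapped, rebamipide library 3 included. Elovl7 lay 1.67, 1.73 and 1.52 above the sebaceous list with vehicle and 1.16, 1.46 and 1.98 above it with rebamipide, again with overlap. The overlap was not particular to those lists, since Elovl4 also overlapped against the sebaceous, basal keratinocyte, growing hair, fibroblast and Schwann cell lists, and Elovl7 against both keratinocyte lists and the growing hair and fast muscle lists. In rebamipide library 3, 3 of the 7 suprabasal and 2 of the 6 sebaceous genes were at 0 counts, so these distances rest in part on the prior count.

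Scd1 lay 4.10, 4.82 and 5.04 log2 units above the adipocyte list with vehicle and 5.75, 6.91 and 6.31 above it with rebamipide, without overlap. Its distance also rose without overlap from the endothelial, blood, fibroblast, Schwann cell and fast muscle lists. The same held for the growing hair, sebaceous and both keratinocyte lists, so the rise was not particular to the adipocyte list. Scd1 lay 10.04, 10.5 and 11.0 above the brown adipocyte list with vehicle and 8.06, 8.21 and 7.90 above it with rebamipide, also without overlap and in the opposite direction. The vehicle value of that list rests in part on the prior count, since Ucp1 had 0 counts in every vehicle library. With Ucp1 left out, an alternative chosen after seeing the data, the mean difference of the distance between groups shrank from -2.47 to -0.98, still without overlap (9.27, 9.63 and 10.01 with vehicle, 8.66, 8.86 and 8.47 with rebamipide). Elovl6 lay 0.07, 0.33 and 0.16 above the adipocyte list with vehicle and at -2.55, -1.34 and -2.25 relative to it with rebamipide. Elovl3 lay 4.87 to 6.34 above the brown adipocyte list with vehicle, and at -0.83, -2.15 and -3.43 relative to it with rebamipide. Without Ucp1 in the list these were 3.95 to 5.57 and -0.23, -1.50 and -2.86. These drops were not particular to Elovl6 and Elovl3. Relative to the brown adipocyte list every member was lower without overlap, and relative to the adipocyte list all but Elovl2 and Scd1 were. The part of these cell types in the members' levels was not tested.

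**Figure D4:**
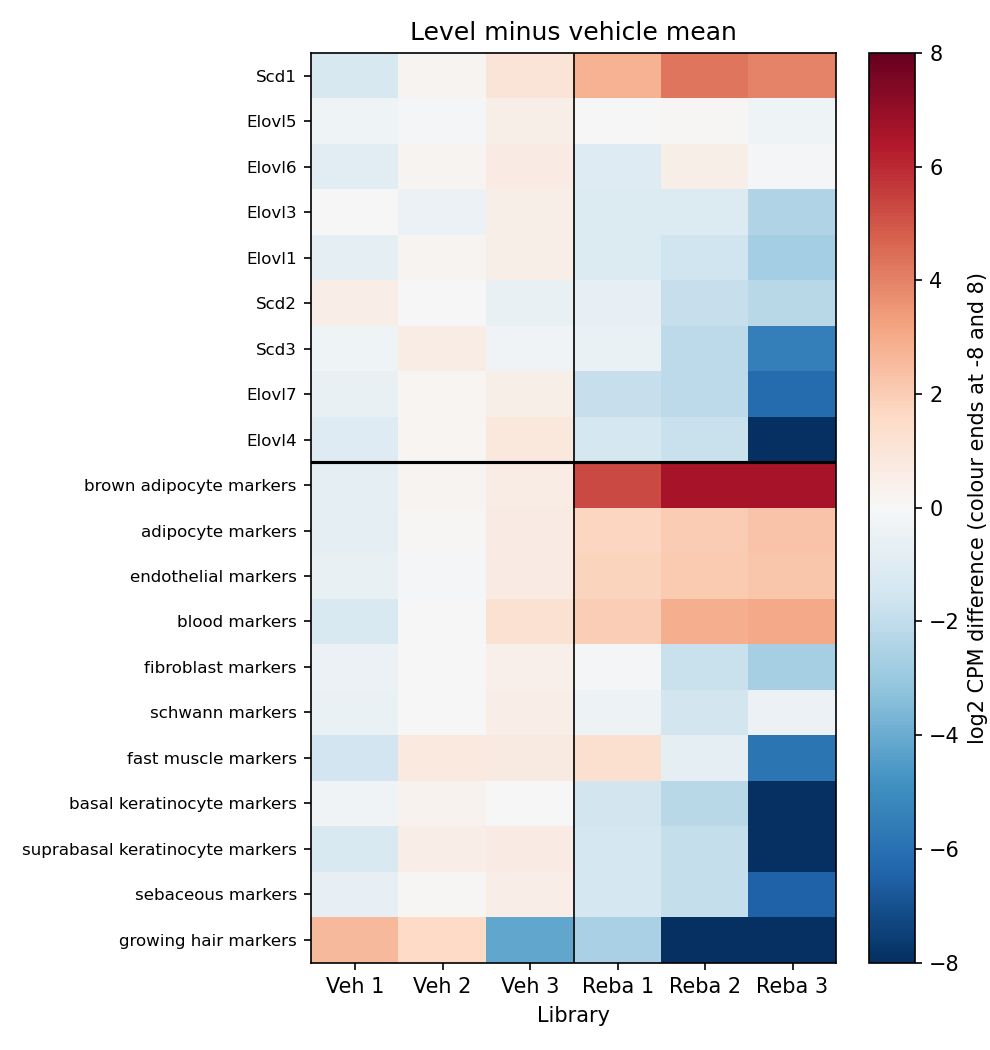
Colour map of log2 CPM minus the vehicle mean for 9 members (above the line) and the mean of 11 marker lists (below it) in each library, with colour ending at -8 and 8. Scd1 is red in the rebamipide libraries together with the brown adipocyte, adipocyte, endothelial and blood lists, and Elovl4, Elovl7 and Scd3 are dark blue in rebamipide library 3 together with the keratinocyte, sebaceous, growing hair and fast muscle lists.

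Other enzymes complete each round of elongation by reduction and dehydration. Of 6 tested partners of the elongases, edgeR called 1 lower (6.51% of all genes) and 0 higher (14.1% of all genes). Their median log2 fold change was 0.56, which turned to -0.06 with total counts alone and -0.03 on log2(FPKM + 1). The median of all genes was -0.78 and -0.46 in those 2 settings. The gene called lower was Hacd3, a 3-hydroxyacyl-CoA dehydratase, at 114, 89.7 and 94.2 CPM with vehicle and 55.1, 62.3 and 48.6 with rebamipide (log2 fold change -0.84 ± 0.19, adjusted p = 0.0291 by edgeR). Its relative Hacd1 had 8.59, 14.2 and 18.1 CPM with vehicle and 30.8, 27.1 and 29.7 with rebamipide (log2 fold change 1.10, adjusted p = 0.0521 by edgeR). Hsd17b12, the ketoacyl reductase of the cycle, had 181 to 333 CPM with vehicle and 345 to 509 with rebamipide, without overlap (adjusted p = 0.0991 by edgeR). That separation leans on the TMM factors. The log2 fold change of Hsd17b12 was 0.83 in the main test and 0.20 with total counts alone, and its mean FPKM was 127 ± 36.5 and 146 ± 12.6 (SD).

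Of 11 other desaturases and electron carriers, edgeR called 1 higher (14.1% of all genes) and 0 lower (6.51% of all genes). The median log2 fold change was -0.73. With total counts alone it was -1.31, with 0 called higher (8.46% of all genes) and 4 lower (25.2% of all genes). Cyb5b, the cytochrome b5 of the outer mitochondrial membrane, had 151, 191 and 234 CPM with vehicle and 325, 559 and 446 with rebamipide (log2 fold change 1.21 ± 0.30, adjusted p = 0.0377 by edgeR). Cyb5a, the form in the endoplasmic reticulum that passes electrons to the desaturases, had 83.4 to 186 and 170 to 235 CPM, with overlap (adjusted p = 0.196 by edgeR). Fads6, a fatty acid desaturase by its sequence family, had 19.6, 14.2 and 16.1 CPM with vehicle and 9.75, 3.47 and 2.67 with rebamipide (log2 fold change -1.65 ± 0.54, adjusted p = 0.0734 by edgeR). Fads1, the delta-5 desaturase of polyunsaturated chains, had 46.7 to 67.8 CPM with vehicle and 23.7 to 42.9 with rebamipide (adjusted p = 0.0949 by edgeR). Scd4, the fourth desaturase of the Scd cluster, held 46, 78 and 62 counts with vehicle and 24, 9 and 2 with rebamipide (adjusted p = 0.168 by edgeR).

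Genes of palmitate supply, which make or control the malonyl-CoA and palmitoyl-CoA used by Elovl6 and Scd1, included several called genes. Of 10 tested, edgeR called 6 higher (14.1% of all genes) and 1 lower (6.51% of all genes). The median log2 fold change over the list was 2.14, and 1.53 with total counts alone. Acaca, the acetyl-CoA carboxylase that makes malonyl-CoA for both synthesis and elongation, had 213, 262 and 436 CPM with vehicle and 2216, 2420 and 1811 with rebamipide (log2 fold change 2.82 ± 0.38, adjusted p = 0.0101). Fasn, the synthase of palmitate, had 646, 1146 and 1949 CPM with vehicle and 11266, 7587 and 6092 with rebamipide (log2 fold change 2.74 ± 0.55, adjusted p = 0.0225 by edgeR). Thrsp (3.34), Acacb (3.21), Mlycd (2.69) and Slc25a1 (1.59) were the other genes called higher, with their log2 fold changes in brackets. Mlycd is malonyl-CoA decarboxylase and breaks malonyl-CoA down rather than supplying it. Mid1ip1, an activator of acetyl-CoA carboxylase, was the gene called lower (log2 fold change -0.76, adjusted p = 0.0491 by edgeR).

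Of 12 regulators known to act on these genes, edgeR called 5 higher (14.1% of all genes) and 0 lower (6.51% of all genes). Their median log2 fold change was 0.65, which was 0.03 with total counts alone and on log2(FPKM + 1). Ppara, a fatty acid receptor, had 3.73, 7.68 and 7.33 CPM with vehicle and 130, 265 and 282 with rebamipide (log2 fold change 5.17 ± 0.48, adjusted p = 0.00939 by edgeR). Srebf1, the sterol-regulated factor of lipogenesis, had 69.3, 86.7 and 87.3 CPM with vehicle and 172, 206 and 203 with rebamipide (log2 fold change 1.26 ± 0.19, adjusted p = 0.0123 by edgeR). Mlxipl, a glucose-responsive factor (2.93), Pparg, the adipocyte receptor (2.73), and Nr1h3, the oxysterol receptor LXR alpha (2.496), were also called higher, with their log2 fold changes in brackets. DESeq2 called 8 higher and 1 lower, where it called 14.9% of all genes higher and 14.2% lower. With total counts alone, edgeR called 5 higher and 4 lower (Insig2, Srebf2, Scap and Rxra), where it called 8.46% of all genes higher and 25.2% lower.

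**Figure D5:**
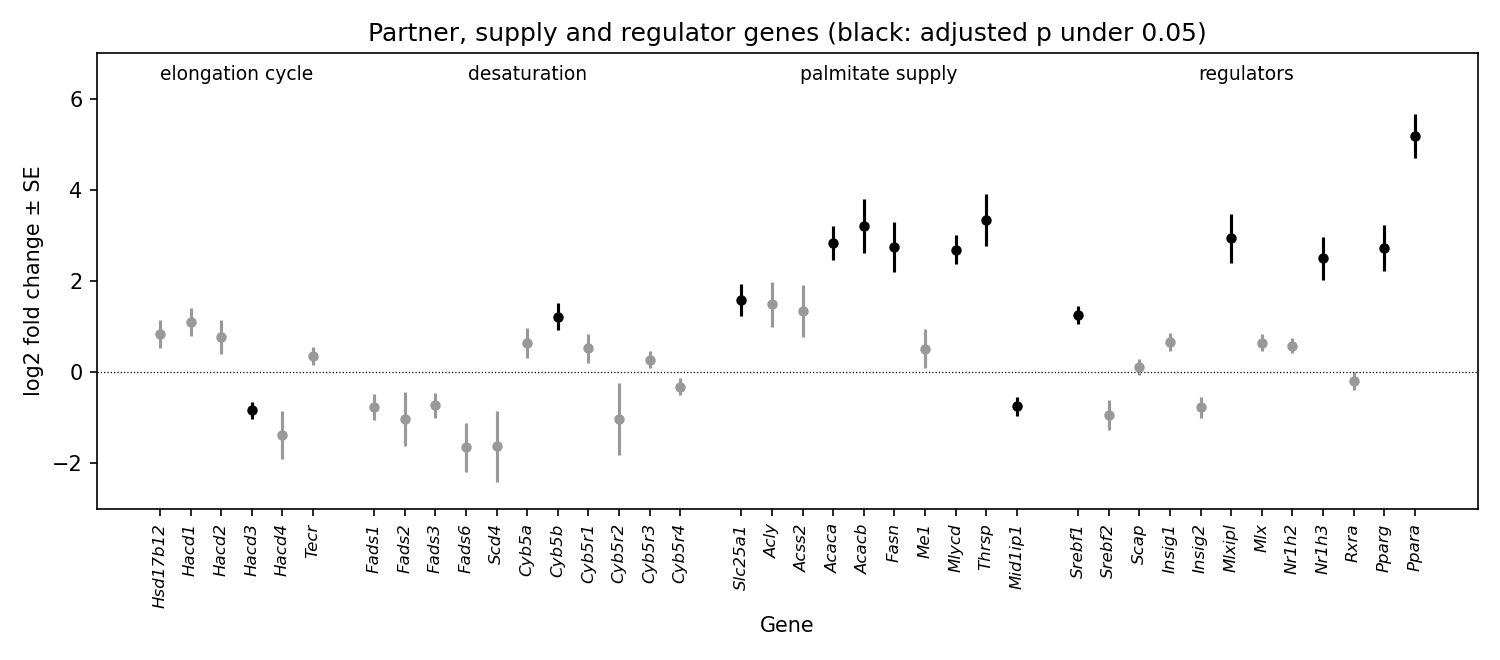
Log2 fold change of rebamipide against vehicle (points, bars are SE) for the genes of the elongation cycle, of desaturation, of palmitate supply and of their regulators, in black where the adjusted p by edgeR was under 0.05. Ppara is highest at 5.17, and 6 of the 10 palmitate supply genes are black above 0.

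Some users of the members' products are known for barrier lipids and others for storage and sebum lipids. Of 12 genes that build acylceramides from ultra-long chains, 1 was called higher (14.1% of all genes) and 2 lower (6.51% of all genes), the median of the log2 fold changes was -2.05, and 8 had every rebamipide library below every vehicle library (24% of all genes). Ugcg, the glucosylceramide synthase, had 49.8, 69.1 and 72.6 CPM with vehicle and 25.5, 33.05 and 26.4 with rebamipide (log2 fold change -1.17, adjusted p = 0.0199 by edgeR), and Slc27a4, a fatty acid transporter and acyl-CoA synthetase, changed by -1.12 (adjusted p = 0.0437 by edgeR). Abhd5, the co-activator of lipases that also serves acylceramide synthesis, was the gene called higher (log2 fold change 1.25, adjusted p = 0.0306 by edgeR). In rebamipide library 3, 4 of the 12 were at 0 counts, and without that library the median was -1.47. Different genes were then called by edgeR, Cers3 (-2.15), Pnpla1 (-2.19) and Cyp4f39 (-1.68), all lower, while Ugcg (adjusted p = 0.0678), Slc27a4 (0.125) and Abhd5 (0.0790) no longer passed by edgeR.

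Another list held 7 genes that esterify the products into triglyceride, wax or sterol esters or make the fatty alcohols of wax. Of these, edgeR called 2 higher (14.1% of all genes) and 1 lower (6.51% of all genes), with a median log2 fold change of -1.83. Dgat2 (2.81) and Dgat1 (2.5004), the acyltransferases of triglyceride synthesis, were higher, and Far1, a fatty acyl-CoA reductase that makes fatty alcohols, was lower (-1.96, adjusted p = 0.0181 by edgeR), with log2 fold changes in brackets. Without rebamipide library 3 the median was -1.39, Dgat1 and Dgat2 were still called by edgeR, Soat1, a sterol acyltransferase, was called lower (-1.94), and Far1 was not called (adjusted p = 0.0517 by edgeR).

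Genes whose log2 CPM ran closely alike with a member over the 6 libraries were named by Pearson's r among 9820 genes, as a description, since all points share the same libraries and the same split into groups. For Scd1 they were Extl3 and Gpam (both r = 0.999), and Gpam is the acyltransferase of the first step of glycerolipid synthesis. For Scd2 they were Tenm2 and Eef1g (0.999 and 0.998), and for Scd3 Sh3rf2 and Extl1 (0.991 and 0.990). Elovl4 ran alike with Sdr16c6 and Rnase2b (both 1.000 after rounding), Elovl7 with Ankrd35 (0.997) and Elovl1 with Emb (0.999). Elovl3 was nearest to Eif6 and Errfi1 (0.997 and 0.993), Elovl6 to Ppp3r1 and Rab18 (0.990 and 0.989) and Elovl5 to Sem1 and Ebp (0.974 and 0.942).

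Promoter windows of RefSeq on GRCm38.p6, 250 bases before the start of the gene, were searched on both strands for 6 motifs, and 7 of the 10 members had a window, all but Scd1, Scd2 and Elovl3. The GC box GGGCGG occurred in 4 members (Elovl1, Elovl2, Elovl4 and Elovl7) and in 32.7% of all windows. CCAAT occurred in Elovl1 and Elovl5 (33.9% of all windows), the nuclear receptor motif AGGTCA in Elovl1 and Elovl6 (14.0%) and the E-box CACGTG in Elovl5 (6.02%). The sterol regulatory element TCACNCCAC (1.05%) and TATAAA (12.4%) were found in 0 of the 7. A match is a run of letters and not a shown binding site.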

How the data were processed

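Full-thickness dorsal skin of 3 vehicle and 3 rebamipide mice was profiled by poly-A RNA-seq. The authors deposited raw read counts per gene, without normalization, and FPKM in 1 table. Recomputing showed that the deposited FPKM are these counts scaled by gene length and library total. The submitters' processing notes name fastp 0.22.0, HISAT2 2.1.0, HTSeq 0.9.1 and GRCm39. All 12 columns of values were matched to samples by name. Genes were tested on the counts in R 4.3.3 with edgeR 4.0.16 (TMM, filterByExpr, quasi-likelihood test, Benjamini-Hochberg adjustment over 14875 genes). Marker means used log2 CPM with a prior count of 2. The alternatives were DESeq2 1.42.0 (the test of the study), limma 3.58.1 with voom or on log2(FPKM + 1), other scaling factors and filters, a replicate block and leaving out each library. The scripts were tested on simulated counts with 200 genes changed 4-fold at a dispersion of 0.1. That setting was not fitted to the replicate spread or the TMM factors of these libraries, so it checks the code and not the calls. Replicates differed by far more than sampling noise (chi-square of 83.1 to 742 per degree of freedom), so none was counted as a duplicate.

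Besides all 10 members, the rule for named genes took up to 5 genes of a list with the smallest edgeR p, not all of which are printed, and up to 2 similar genes per member with a mean CPM of at least 10 (some similar genes are not reported here). Slc25a1, Mid1ip1, Pnpla1, Cyp4f39, Insig2, Srebf2, Scap and Rxra were added to complete the genes called in their lists, and Cyb5a for its role, after their values were seen. The members and the gene lists were chosen with earlier results of these data known. Depth was 32709801 to 39915276 counts, and the floor of 3 counts covers counting error only. Sequences came from GENCODE M21 transcripts on GRCm38 and their coordinates were kept apart from those of the table, since only 579 of 21163 symbols start within 1000 bases on both.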

Additional observations from a re-analysis of the deposited data

How the results depend on the processing

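Of 189 values of the 9 tested members under 21 alternatives, 138 kept their direction and their side of the threshold, 37 passed it anew, 6 no longer passed it and 8 changed sign. The sign changes were in Elovl5 and Elovl6, near 0: leaving out a library gave -0.31 to 0.17 for Elovl5 by edgeR and -0.30 to 0.17 by DESeq2 (0.01 and 0.031 without rebamipide library 3), and -0.64 to 0.12 for Elovl6 by edgeR and -0.63 to 0.14 by DESeq2 (0.09 and 0.077 without rebamipide library 1). With total counts alone the log2 fold change was -0.72 for Elovl5 and -0.88 for Elovl6. On log2(FPKM + 1) it was -0.70 and -0.83, and none of these was called. The count of members called higher was 1, and was 0 with upper quartile factors and 0 to 1 when a library was left out. The count called lower was 0 by edgeR, 4 by DESeq2, 1 by limma-voom, 5 by limma on log2(FPKM + 1), 1 with RLE factors, 3 with total counts alone, 2 with at least 10 counts in every sample, and 0 to 5 when a library was left out. Of all genes, 6.51% were called lower by edgeR, 14.2% by DESeq2, 6.94% by limma-voom, 32.3% on FPKM, 7% with RLE factors, 25.2% with total counts alone and 11.9% under the stricter filter. In the fits without 1 library, 0% to 20.3% of all genes were called higher and 0% to 23.8% lower. The count of 5 with a library left out came from DESeq2 without rebamipide library 1, where 23.8% of all genes were called lower. Total counts alone also moved the median log2 fold change of all genes from -0.17 to -0.78. Of the partners of elongation and desaturation, 1 was called higher, and 2 by DESeq2, 2 by limma-voom, 0 on FPKM, 0 with total counts alone, 2 under the stricter filter and 0 to 6 when a library was left out. The count called lower was 1, and 3, 2, 7, 6 and 2 under the same settings in that order, and 0 to 7 when a library was left out. Shared replicate numbers did not pair the libraries (correlations of deviations -0.0164, -0.0382 and 0.00316). With a replicate block, 1 member (Scd2) was called lower, 0 partners were called lower, Scd1 had an adjusted p of 0.0179, and 1432 genes were called higher and 855 lower against 2093 and 968. On reads in place of FPKM the differences in family share moved by no more than the pooled SD of the replicates. Leaving out 1 of 3 libraries cannot move them by more than that SD, so it is no check of stability, and the values are given instead: -3.84 to 2.84 percentage points for Elovl3, which changed sign without vehicle library 1, 6.09 to 18.1 for Scd1, -16.3 to -4.995 for Scd2 and -35.4 to -15.57 for Elovl4. Over the same settings, an alternative chosen after seeing the data, 0 to 8 palmitate supply genes were called higher and 0 to 1 lower, 0 to 8 regulators higher and 0 to 4 lower, 0 to 1 acylceramide genes higher and 0 to 9 lower, and 0 to 2 ester genes higher and 0 to 4 lower, with 0 in each list by edgeR without vehicle library 2 or rebamipide library 2. The share of all genes called ran from 0% to 20.3% higher and from 0% to 32.3% lower. The 9 acylceramide genes were called on log2(FPKM + 1), the setting with 32.3%. The cause of these changes was not tested. At this depth Elovl2 did not pass the filter of edgeR.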
